A study of Homo sapiens with 48 samples.

Results

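The baseline expression of 2 lung cancer cell lines, H-1299 and H-23, was compared across all genes. The comparison took the 6 libraries from cells that received only DMSO, the solvent of the drug used elsewhere in the study, 3 of H-1299 and 3 of H-23, out of 48 libraries in the series. Each line was grown in dishes under its standard culture protocol and held in DMSO for 24 h, and per the labels the 3 libraries of a line are biological replicates. The other 42 libraries are the same lines after carfilzomib, an inhibitor of the proteasome given at the dose that blocked proteasome activity by 50%, and 6 lines of colon (RKO, DLD-1), pancreas (PANC-1, CAPAN-2) and plasma cell (H-929, RPMI) cancers under both treatments. Each line is a single established line, so a p-value below measures the spread between cultures of these lines and not the spread between lung cancers.

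H-23 is a lung adenocarcinoma line, and H-1299 is a non-small cell lung cancer line from a lymph node metastasis, known for an activating NRAS mutation. Epithelial cells hold together through E-cadherin junctions and keratin filaments. Cells that pass to a mesenchymal state lose these junctions and gain vimentin, N-cadherin and other genes of motile cells. Cancer lines also keep their own pattern of silent genes, among them germ cell genes that healthy lung does not transcribe.

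The 6 libraries held 27279381 to 64369098 counts, up to 55017608 in H-23 and down to 38477108 in H-1299. Levels are given as CPM, counts scaled to a common library size, after the TMM correction for differences in composition, and ± is the SD over 3 libraries. Replicates differed by more than counting noise, with a chi-square per degree of freedom of 3.99 to 5.91 in H-23 and 7.34 to 13.6 in H-1299. The 27 lung lineage genes in the matrix summed to 698 to 733 CPM in H-1299 and 404 to 416 in H-23, most of it from CAV1 (441 and 258), which many other cell types also express. Of these genes 19 were under 1 CPM in H-1299 and 15 in H-23, among them SFTPC and SCGB1A1, which mark alveolar and club cells and had at most 3 counts in any library. Some markers of other cell types were at 0 in the 6 libraries, such as CD3E (T cells), HBB (red cells), INS and PRSS1 (pancreas) and LGALS4 (intestine). Others were present in H-23: CD8A was at 4.91 CPM, CD4 at 3.66, the endothelial factor ERG at 7.35 and the intestinal factor CDX2 at 5.11, against 0.0524, 0.209, 0.474 and 0 in H-1299. H-23 ranked 1st of the 8 lines for CD8A, CD4 and ERG. For CD4 the lead was small, 3.53 CPM against at most 3.38 in the other 6 with 48 libraries scaled together. Summed over 15 blood cell markers the level was 31.3 to 31.8 CPM in H-1299, most of it from CD68 (29.3), and 18.6 to 19.3 in H-23, where CD68 was at 6.63. Over 10 plasma cell markers it was 12.1 to 13.9 and 184 to 189, most of it from SDC1. The summed level of 10 endothelial markers was 2.91 to 3.94 CPM in H-1299 and 12.3 to 13.3 in H-23, that of 12 intestinal markers 1.03 to 1.34 and 7.59 to 8.13, and that of 11 pancreatic markers at most 0.0999 and 0.982. The part of these markers in the differences below was not tested.

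Most expressed genes differed between the lines. Of 18450 rows tested, 14788 (80.2%) were called, meaning an adjusted p under 0.05 in edgeR's quasi-likelihood test, 7252 (39.3%) higher in H-1299 and 7536 (40.8%) lower. The lines did not overlap at all in 82.3% of the rows tested. With so many calls the size of a difference says more than the call, and 1350 rows (7.32%) were called at least 4-fold higher in H-1299 and 2434 (13.2%) at least 4-fold lower, 20.5% in all. The median log2 fold change, H-1299 minus H-23 throughout, was -0.04. The list counts below are to be read beside these shares, since a list with about 39.3% called higher and 40.8% lower is like all rows. Scaling by library totals alone moved that median to -0.26 and the share of calls that were higher from 49.0% to 39.8%, so differences below are relative to the TMM scale. Of 580 long intergenic noncoding RNAs tested 76.2% were called, 17.9% at least 4-fold higher and 25% at least 4-fold lower, against 85% of 14287 protein-coding genes tested, with 6.64% at least 4-fold higher and 12.8% at least 4-fold lower. Among the called rows 343 had no count in any H-1299 library, and 147 of these averaged 50 or more counts in H-23. The reverse held for 140 rows with no count in any H-23 library, 83 of them averaging 50 or more in H-1299.

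**Figure D1:**
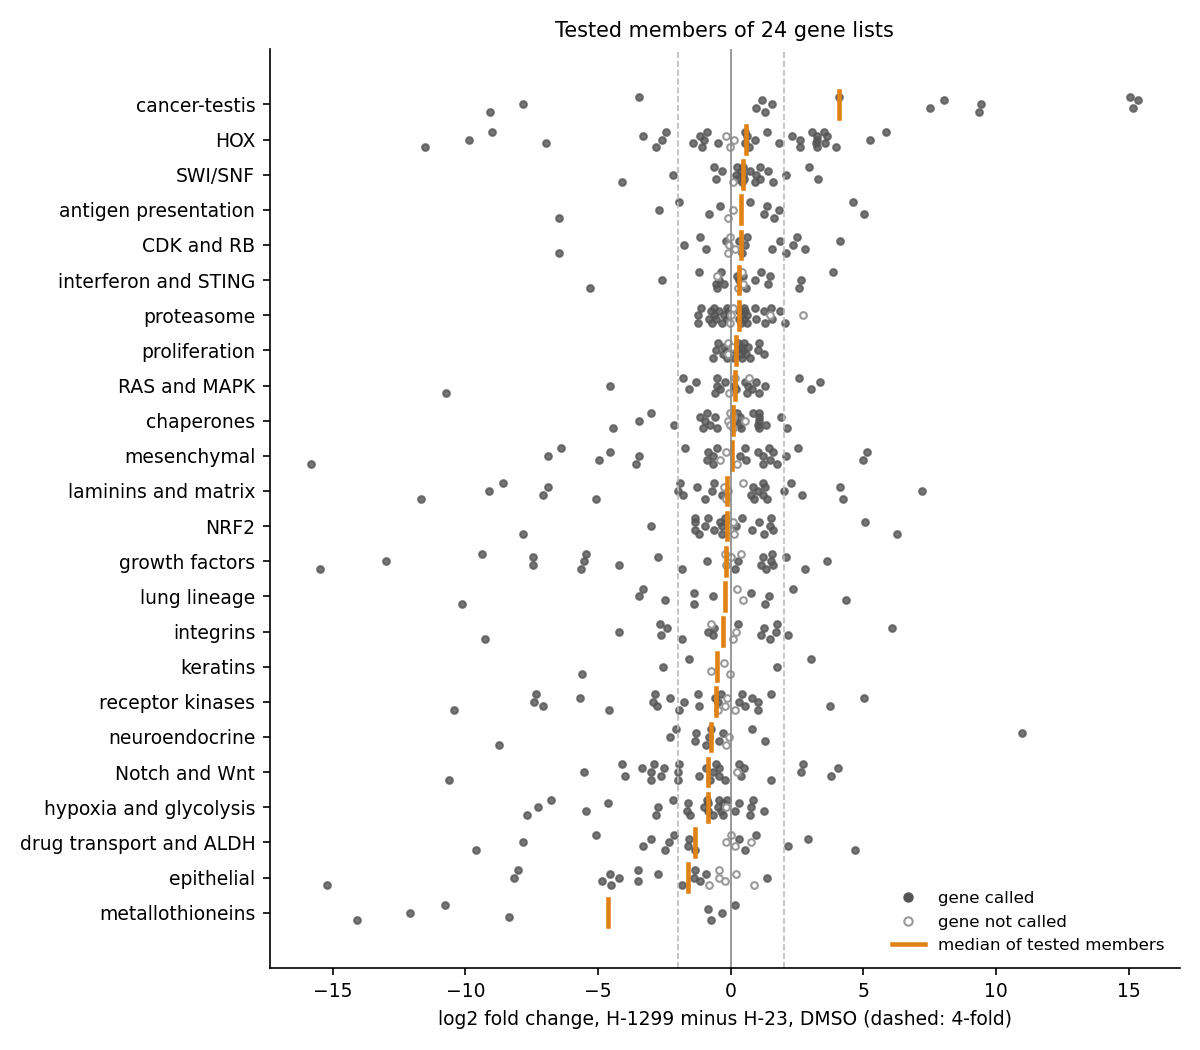
Log2 fold change of each tested member of 24 gene lists, H-1299 minus H-23 in DMSO; each dot is a gene (filled where called, open where not), the orange bar is the median of the tested members and dashed lines mark 4-fold. The cancer-testis median lies at 4.07 and the metallothionein median at -4.61, against -0.04 over all rows. Of the tested members of these 2 lists, 6 and 4 had no count in 1 line and passed the filter through the other line alone.

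The epithelial list was lower in H-1299. Of its 30 genes 22 were tested, 15 were called lower and 1, AP1M2 of the epithelial sorting adaptor, was called higher, and 10 were at least 4-fold lower against none at least 4-fold higher. The median was -1.61. In bulk RNA a lower level can mean fewer cells that express a gene or less RNA per cell, and these cannot be told apart. CDH1, which encodes E-cadherin (chromosome 16, 68737225 to 68835548), had no count in the 3 H-1299 libraries and 108, 100 and 109 CPM in the 3 H-23 libraries, so it was at least 4744-fold lower when the floor is set at 3 counts over a line. That floor equals 0.0225 CPM in either line and serves for every gene with no count below. EPCAM, an epithelial adhesion protein, was at 0.150, 0.170 and 0.263 CPM in H-1299 and at 4.16, 4.47 and 4.70 in H-23, a log2 fold change of -4.53 ± 0.25 (SE). H-23 itself held little EPCAM: among the 8 lines in DMSO the other 6 ran from 0.0196 to 936 CPM, and H-23 ranked 6th.

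Other genes of the list were also lower. The membrane protease inhibitor SPINT2 stood at 3.48 ± 0.719 CPM against 66.3 ± 3.25, and its relative SPINT1 at 0.204 against 4.42. MAL2, which sorts cargo to the apical membrane, was at 0.0350 against 8.60, and the epithelial splicing regulator ESRP2 at 1.00 against 11.4. ESRP1, the other such regulator, was scarce in both lines (0.552 ± 0.137 and 0.287 ± 0.0966 CPM) and was not called (adjusted p = 0.0552), nor were the junction genes CLDN4 (3.22 and 2.82 CPM) and MARVELD3 (1.91 and 2.61). Of 22 keratins 8 were tested. KRT8 and KRT18, the paired filament proteins of simple epithelia, were present in both lines but lower in H-1299. KRT8 was at 285, 307 and 298 CPM there against 1686, 1752 and 1794, and KRT18 at 707, 797 and 746 against 2109, 2299 and 2314. The lines were well apart for both genes, with log2 fold changes of -2.56 and -1.58. The annotated spans of KRT8 and KRT18 overlap on chromosome 12, and the use of strand in counting is not stated, so their separate values are uncertain. KRT80 (1.73) and KRT15 (3.03) were the 2 keratins called higher.

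Mesenchymal genes were split. Of 34 genes 30 were tested, and 14 were called higher and 13 lower, against 39.3% and 40.8% of all rows. The median was 0.04. VIM, the vimentin filament gene, was abundant in both, at 3843, 3515 and 3857 CPM in H-1299 and 1561, 1612 and 1678 in H-23. N-cadherin (CDH2) was at 64 ± 0.508 against 15.1 ± 1.30, fibronectin (FN1) at 64.7 ± 6.42 against 19.5 ± 1.38, and the repressor of E-cadherin ZEB1 at 62.7 ± 2.41 against 49.5 ± 0.562. Its relative ZEB2 was at 40.9 against 14.7. TGFBI, a matrix protein induced by TGF-beta, was the furthest higher, at 115 against 3.26 CPM.

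The other side of the list was as far apart. CDH11, the cadherin of mesenchymal cells, had no count in H-1299 and 160, 158 and 162 CPM in H-23, at least 7148-fold lower, and H-23 ranked 1st of the 8 lines for it. The fibrillar collagen COL5A2 was at 3.11, 2.35 and 4.12 CPM in H-1299 and at 266, 262 and 273 in H-23. COL3A1, COL1A1 and COL5A1 had log2 fold changes of -6.88, -4.54 and -3.47, and SNAI1, another repressor of E-cadherin, was at 0.459 against 13.8 CPM. H-23 thus held CDH1 together with CDH11, SNAI1 and collagens, while H-1299 had no count of either cadherin.

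**Figure D2:**
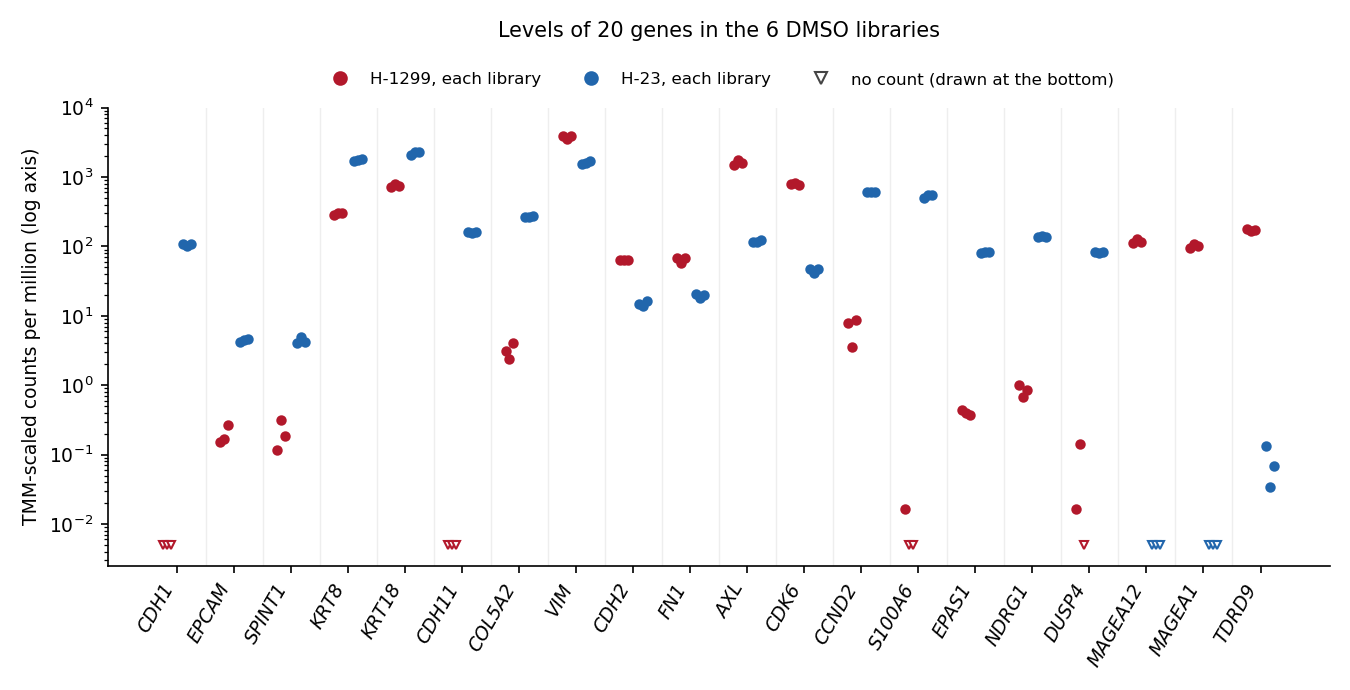
TMM-scaled CPM (log axis) of 20 genes in each of the 6 DMSO libraries, H-1299 in red and H-23 in blue; open triangles at the bottom are libraries with no count. The lines do not overlap for any gene drawn, nor in 82.3% of all rows tested. Several of these genes were picked from rows without overlap, so its absence is not a result about them. CDH1 is at 0 in H-1299 and 100 to 109 in H-23, and AXL at 1470 to 1761 against 116 to 124.

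Matrix and adhesion genes were called in both directions, in shares near those of all rows. Of 32 matrix genes tested 14 were called higher and 14 lower, against 39.3% and 40.8% of all rows. The median was -0.13, and 5 and 6 were at least 4-fold higher and lower, against 7.32% and 13.2%. Laminin chains, of the sheet-forming protein of basement membranes, were split: LAMB3, a chain of epithelial laminin, was at 88.6 against 0.595 CPM, while LAMA1 was at 0.0525 against 153 and LAMB1 at 117 against 444. The basement membrane collagens COL4A1 and COL4A2 were at 0.0766 against 11.5 and 0.0544 against 30.9. CD44, the receptor for hyaluronan, was at 253 ± 6.71 against 52.0 ± 4.28, and the membrane protease MMP14 at 90.3 against 4.79. Among 20 integrins 8 were called higher and 9 lower, also near the shares of all rows. ITGA4, an integrin chain best known from white blood cells, was at 101 against 1.5 CPM, and ITGB8, which activates TGF-beta, at 2.81 against 17.8. TFPI2, a secreted protease inhibitor of the matrix, was among the 6 most abundant per unit length of the genes at least 4-fold lower in H-1299 and stood at 26.2, 27.6 and 25.1 CPM in H-1299 against 1866, 1942 and 1982.

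S100A6, a small calcium-binding protein (chromosome 1, 153534599 to 153536244), was nearly silent in H-1299. One H-1299 library had 1 count and the other 2 had none, while H-23 had 22243, 15989 and 32175 counts, or 493, 542 and 550 CPM. The ratio was 70532 with a 95% counting interval of 12659 to 2785914. The other 6 lines ran from 169 to 1401 CPM, so H-1299 stood apart from all of them. Next before it among coding genes averaging 50 or more counts in the higher line came TCHH, HRNR, FLG and FLG2 of the cluster for the outer skin layer. They were also lower by at least 4-fold, with FLG at 69.4 CPM in H-23 and 1 count in H-1299 (these genes were singled out after their values were seen). FLG ends at 152325203, far from S100A6, and genes under that count in between were passed over. S100A4, of the same family as S100A6, was not called (1.93 against 2.18 CPM).

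Receptor tyrosine kinases were lower more often than higher: 17 of 30 tested were called lower and 9 higher, with 10 and 2 at least 4-fold apart and a median of -0.53. AXL, the receptor for GAS6, was the exception at high level, at 1470, 1761 and 1583 CPM in H-1299 against 116, 116 and 124 in H-23, a log2 fold change of 3.75 ± 0.07. H-1299 ranked 1st of the 8 lines for it, and its ligand GAS6 was also called higher (25.3 against 11.4). FGFR1 was at 114 against 55.2 CPM. MET, the receptor of HGF, was at 175 ± 7.91 against 412 ± 18.7, and IGF1R at 28.7 against 206. KIT, RET, FGFR2 and ROR2 were at or under 0.114 CPM in H-1299 and at 13.9, 1.79, 9.03 and 15.5 in H-23. EGFR did not pass the test (82.7 ± 8.30 against 90.0 ± 2.29, adjusted p = 0.0942), and the lines overlapped. Under 5 of 16 alternatives it was called lower in H-1299, with log2 fold changes of -0.14 to -0.34.

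Ligands and cytokines were called in shares near those of all rows, but more of them were at least 4-fold lower. Of 27 tested, 11 were called higher and 12 lower, against 39.3% and 40.8% of all rows. At least 4-fold lower were 10 and at least 4-fold higher 3, against 13.2% and 7.32%. EREG, a ligand of EGFR, had no count in H-1299 and 118, 137 and 130 CPM in H-23, and HGF had none against 22.6. The inflammatory cytokines CXCL8, CCL2, CXCL1 and LIF were at 0.0189, 0.221, 0.467 and 10.5 CPM in H-1299 and at 11.9, 38, 21.7 and 196 in H-23. TGFA, another EGFR ligand, was the other way, at 48.9 against 3.98, and TGFB1 was at 99.8 against 23.3.

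In the RAS and MAPK list 12 of 25 tested were called higher and 10 lower, against 39.3% and 40.8% of all rows. The median was 0.15. NRAS itself was lower in H-1299 (242 against 319 CPM). These counts do not distinguish mutant from wild-type transcripts. Feedback genes of the pathway did not move together. The phosphatase DUSP4 was at 0.0166, 0.142 and 0 CPM in H-1299 and at 82.3, 80.4 and 82.0 in H-23, and the early growth gene EGR1 was at 2.07 against 48.1. DUSP5 and SPRED3, also inhibitors of the pathway, were at 75.6 against 12.6 and 25.4 against 3.14, and the AP-1 subunit FOSL1 was at 110 ± 15.4 against 10.7 ± 0.577.

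Genes known to respond to DNA damage went both ways. Those described here are picked examples, so the number of them each way is not a result. The cell cycle inhibitor CDKN1A was at 34, 34.2 and 31.6 CPM in H-1299 against 114, 113 and 113 in H-23, a log2 fold change of -1.77, and the lines were well apart. PHLDA3, an inhibitor of AKT, was at 0.05 against 7.98, SPATA18 at 0 against 2.96, the death receptor EDA2R at 0.332 against 5.34 and FDXR, a mitochondrial reductase, at 19.2 against 80.5. For PHLDA3 H-1299 was the lowest of the 8 lines, the other 6 lying between 2.15 and 63.5 CPM. The ubiquitin ligase MDM2 differed less (252 ± 1.39 against 346 ± 4.88). CCNG1, an atypical cyclin, and PERP, a protein of desmosomes, were the other way, at 411 against 78.7 and 125 against 52.5.

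Some regulators of entry into the cell cycle were far apart and others were not called. CDK6, a kinase that phosphorylates RB, was at 781, 827 and 760 CPM in H-1299 and 47.7, 41.5 and 46.5 in H-23, the highest and the lowest of the 8 lines. CCND2, one of its cyclin partners, was at 8.01, 3.54 and 8.74 against 609, 598 and 609, while CCND1 was at 375 and 394 and was not called. All 4 inhibitors of the INK4 family were higher in H-1299: CDKN2A (73.3 ± 0.585 against 14.3 ± 0.796), CDKN2B (53.9 against 9.61), CDKN2C (52.8 against 7.57) and CDKN2D (21.9 against 5.20). Of 20 genes of the CDK and RB list tested 11 were called higher and 5 lower. Proliferation genes differed little, 14 of 24 called higher and 7 lower with none past 4-fold. Among them MKI67 was at 303 against 336 CPM and CCNB2, the furthest, at 222 against 91.9. On library totals alone the number called lower was 11 in the proliferation list and 8 in the CDK and RB list, and in the latter it was also 8 without H-1299 replicate 2.

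Hypoxia and glycolysis genes were lower in H-1299 as a group: 22 of 29 tested were called lower and 6 higher, 8 were at least 4-fold lower and none at least 4-fold higher, and the median was -0.87. EPAS1, the hypoxia-inducible factor HIF-2 alpha, was at 0.433, 0.397 and 0.368 CPM in H-1299 and at 80.8, 82.0 and 83.5 in H-23. NDRG1, a hypoxia-induced gene, was at 0.854 ± 0.168 against 137 ± 2.02. For both genes H-1299 was the lowest and H-23 the highest of the 8 lines. The carbonic anhydrases CA12 and CA9 and the oxygen sensor EGLN3 were under 0.07 CPM in H-1299 and at 1.94, 1.86 and 1.80 in H-23. HIF1A differed little (187 against 228). Enzymes of glycolysis went both ways, with TPI1 at 963 against 1763 CPM and PKM at 2045 against 1149.

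The NRF2 list holds this factor of the oxidative stress response (NFE2L2), its inhibitor KEAP1 and genes that NRF2 regulates. It was split, 10 of 26 called higher and 13 lower, against 39.3% and 40.8% of all rows. NQO1 was at 260 ± 10.3 against 342 ± 14.9 and the thioredoxin reductase TXNRD1 at 639 against 1230, while the cystine transporter SLC7A11 was at 146 ± 45.7 against 48.5 ± 1.47. One H-1299 library held 93.7 CPM of SLC7A11 and the other 2 held 171 and 175. Of 21 drug transport and detoxification genes tested 11 were called lower and 6 higher, and 8 were at least 4-fold lower and 3 at least 4-fold higher, against 13.2% and 7.32% of all rows. The median was -1.36. The 2 classical drug efflux pumps went opposite ways: ABCG2 was at 1.95, 2.92 and 2.15 CPM in H-1299 against 76.2, 75.4 and 80.7 in H-23, and ABCB1 at 19, 20.5 and 17.6 against 0.820, 0.508 and 0.820. The glutathione transferase GSTP1 was at 166 against 915 CPM and GSTM1 at 0 against 2.17.

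Metallothioneins, small metal-binding proteins encoded side by side on chromosome 16, showed a block of silent genes in H-1299. MT1L, MT1E, MT1A and MT1F had no count in any H-1299 library and 12.4, 48.2, 4.85 and 0.919 CPM in H-23. MT1E alone had 2229, 1432 and 2736 counts in the 3 H-23 libraries, at least 2136-fold more than H-1299. The genes on either side of that block stayed on: MT2A was at 78.7, 76.3 and 86.7 CPM in H-1299 and 68.3, 66.6 and 79.0 in H-23, and MT1X at 13 against 16.2. The lines overlapped for MT2A, whose call as higher (adjusted p = 0.0381) was lost under 9 of 16 alternatives and whose sign turned on library totals. MTF1, the factor that switches these genes on in response to metal, was lower but present (24.7 against 44.5). The list, with MTF1 and the zinc exporter SLC30A1, had 7 of 8 tested members called lower and a median of -4.61, or -3.13 with the genes at 0 set to their bound. It holds 14 genes, and those not tested did not pass the filter. Of the 8 tested, 4 passed through H-23 alone, so the median describes these members and not the family.

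The proteasome, the target of the drug used elsewhere in the study, was split. Of 37 genes tested 17 were called higher and 15 lower, against 39.3% and 40.8% of all rows. Of these genes 1 was at least 4-fold apart, and the median was 0.30. PSMB5, the catalytic subunit that carfilzomib binds, was at 143, 155 and 148 CPM in H-1299 and 181, 188 and 191 in H-23, a log2 fold change of -0.33 ± 0.04. PSMB1, PSMD8 and PSMC1 of the core, the lid and the ATPase ring stood out on the other side, at 530 ± 13.3 against 129 ± 2.66, 665 against 184 and 211 against 71.7. H-1299 ranked 1st of the 8 lines for all 3. On the lower side were the core subunit PSMA5 (154 against 361) and ADRM1, a ubiquitin receptor (143 against 309). PSME2, of the activator cap, was at 20.7 against 48.8, but its identifier has 2 rows and the value is uncertain. With a null fold change of 1.5 the counts were 8 higher and 6 lower.

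Chaperones of the heat shock response were also split, 14 of 31 called higher and 11 lower, against 39.3% and 40.8% of all rows. Their median was 0.10. HSP90AA1, the inducible cytosolic HSP90, was at 3006, 3411 and 2943 CPM in H-1299 and 629, 742 and 765 in H-23, while its constitutive partner HSP90AB1 was at 2909 and 2987 and was not called. HSPA8, the constitutive HSP70, was at 3966, 5024 and 4093 against 2224, 1990 and 2264. HSPA5, which folds proteins in the endoplasmic reticulum, was the other way (165 ± 6.41 against 283 ± 30.7). HSPA1A and HSPA1B, inducible HSP70 genes that share most of their sequence and were summed over 8 rows, were low in both lines at 7.57 ± 1.52 and 5.84 ± 0.397 CPM. That difference (log2 fold change 0.38 ± 0.16, adjusted p = 0.0391) lost its call under 12 of 15 alternatives. BAG3, a co-chaperone of HSP70, was at 54.1 and 55.3 CPM and was not called. The stress-inducible HSPA6 was at 0.566, 0.368 and 0.315 CPM in H-1299 and 4.65, 4.17 and 5.48 in H-23.

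Subunits of SWI/SNF, a complex that moves nucleosomes, were higher in H-1299 in 18 of 24 tested and lower in 5, with a median of 0.46. Its alternative ATPases went opposite ways. SMARCA2 was at 28, 27.7 and 26.8 CPM in H-1299 and 2.75, 3.29 and 2.58 in H-23, which was the lowest of the 8 lines, and SMARCA4 at 38.6 ± 1.31 against 57.2 ± 1.59. With a null fold change of 1.5 the counts were 10 higher and 2 lower.

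Genes of interferon signalling and DNA sensing were called higher in 11 of 23 tested and lower in 8. The RNA sensor IFIH1 was at 36.7 against 6.18 CPM and the interferon-induced IFIT3 at 6.04 against 0.976. In the antigen presentation list several genes have more than 1 row under 1 identifier, which makes single rows uncertain. HLA-B was higher in its first row (14.4 against 0.450) and not called once summed (0.05, adjusted p = 0.35). B2M, the common light chain of these molecules, was lower in its first row (-6.47) and higher once summed (0.55). CD74, the invariant chain of class II molecules, with 1 row, was at 1.57 against 6.11 CPM.

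Notch and Wnt genes were mostly lower, 21 of 30 tested against 8 higher, with 10 and 4 at least 4-fold apart and a median of -0.86. The receptors NOTCH1, NOTCH2 and NOTCH3 were at 12.2, 218 and 4.31 CPM against 74.2, 850 and 34.6, and the ligand JAG2 at 11.8 against 87.8. WNT5A had no count in H-1299 and 4.46 CPM in H-23, while its close relative WNT5B was at 24.4 against 1.49. NKD1 and RNF43, feedback inhibitors of Wnt, were at 0.237 against 10.4 and 0.318 against 5.60. Among lung lineage factors FOXJ1, the regulator of ciliated cells, was at 0.0286 against 36.2 CPM, and GATA6, a factor of early lung and gut endoderm, at 25.7 against 1.21. Neuroendocrine genes were lower in 10 of 15 tested and higher in 3, and BEX1, a small neuronal protein, was at 36.1, 34.6 and 37.2 CPM in H-1299 with 2 counts in all in H-23.

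Cancer-testis genes, which are transcribed in germ cells and reappear in tumours, were mostly higher in H-1299 where they could be tested. Of 35 on the list 15 were tested, and all 15 were called, 12 higher and 3 lower, 8 and 3 of them at least 4-fold, with a median of 4.07. The other members did not pass the filter, which admits a gene that is high in 1 line alone. Of the 15, 6 had no count in 1 line. The share called and the median thus describe these members and not the family. MAGEA12 was at 113, 128 and 114 CPM in H-1299 and MAGEA1 at 95.8, 108 and 101, both with no count in H-23, at least 5208-fold and 4459-fold higher. PASD1 was at 92.2, 99.7 and 93.9 CPM, again with none in H-23. MAGEA3, MAGEA4 and MAGEA6 were expressed in both lines, at 137, 742 and 131 CPM in H-1299 against 70.3, 303 and 44.6, so the silence of H-23 did not extend to the whole family. MAGEA family members share much sequence, and how reads that fit several were counted is not stated. CT83, MAGEC3 and DDX53 were the 3 called lower, at 1.5, 0.624 and 0.538 CPM in H-23. Other germ cell genes outside the list were among the 12 largest positive differences: FAM9C at 128, 118 and 123 CPM, SYCE1 of the meiotic synaptonemal complex at 19.3, and SPESP1 of the sperm equatorial segment at 24.7, all with no count in H-23. TDRD9, a helicase of the piRNA pathway of germ cells that was singled out after its values were seen, was at 180, 166 and 172 CPM against 0.133, 0.0339 and 0.0683.

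Promoter sequence was examined for genes silent in 1 line, since promoters of cancer-testis genes are known to be regulated by methylation of CG pairs. DNA methylation was not measured here. The 250 bases before the start of each gene were taken from RefSeq (GRCh38.p14), with CG pairs in capitals. RefSeq does not always give the start that the GENCODE coordinates printed here do: the windows of S100A6 and ZNF730 lie inside the GENCODE spans of these genes, and that of CSAG1 does in part. They are shown for S100A6, nearly silent in H-1299 (chr1:153535992-153536241, minus strand), for the neighbours MAGEA12 (chrX:152733507-152733756, plus strand) and CSAG1 (chrX:152733722-152733971, minus strand), which share 35 bases, and for the zinc finger genes ZNF730 (chr19:23116775-23117024, plus strand) and ZNF492 (chr19:22634074-22634323, plus strand), all 4 silent in H-23.
S100A6: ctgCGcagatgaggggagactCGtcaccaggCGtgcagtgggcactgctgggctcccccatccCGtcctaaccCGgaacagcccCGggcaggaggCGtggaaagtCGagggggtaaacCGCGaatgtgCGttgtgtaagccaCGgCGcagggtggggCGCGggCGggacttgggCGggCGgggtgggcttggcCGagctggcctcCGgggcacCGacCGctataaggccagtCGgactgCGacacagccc
MAGEA12: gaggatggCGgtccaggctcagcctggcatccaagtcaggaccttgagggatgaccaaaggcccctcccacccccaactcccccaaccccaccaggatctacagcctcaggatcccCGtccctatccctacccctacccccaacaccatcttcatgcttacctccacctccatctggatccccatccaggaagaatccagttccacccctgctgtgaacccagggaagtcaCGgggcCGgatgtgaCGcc
CSAG1: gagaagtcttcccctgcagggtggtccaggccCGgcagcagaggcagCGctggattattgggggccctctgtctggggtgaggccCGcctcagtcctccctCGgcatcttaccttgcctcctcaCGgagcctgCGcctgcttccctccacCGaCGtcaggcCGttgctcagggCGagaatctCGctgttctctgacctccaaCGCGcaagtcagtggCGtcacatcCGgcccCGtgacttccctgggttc
ZNF730: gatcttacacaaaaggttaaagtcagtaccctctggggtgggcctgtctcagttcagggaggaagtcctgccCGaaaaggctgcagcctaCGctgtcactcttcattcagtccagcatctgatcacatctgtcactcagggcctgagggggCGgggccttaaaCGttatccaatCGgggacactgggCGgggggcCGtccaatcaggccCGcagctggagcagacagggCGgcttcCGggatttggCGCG
ZNF492: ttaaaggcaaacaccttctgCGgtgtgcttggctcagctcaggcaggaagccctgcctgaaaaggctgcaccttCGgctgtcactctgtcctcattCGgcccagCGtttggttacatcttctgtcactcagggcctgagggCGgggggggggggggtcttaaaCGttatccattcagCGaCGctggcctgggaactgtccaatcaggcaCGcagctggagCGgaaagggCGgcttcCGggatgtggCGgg
The S100A6 window held 24 CG pairs, an observed to expected ratio of 0.803, where the expectation is the product of its C and G counts over its length. The MAGEA12 window held 5 (0.238), that of CSAG1 16 (0.609), and those of ZNF730 and ZNF492 12 (0.543) and 13 (0.571). Over 10472 tested coding genes that had a promoter entry and averaged 50 or more counts in the higher line, the median ratio was 0.817 and 79.0% reached 0.6. The 78 such genes with no count in H-1299 had a median of 0.654, and 61.5% reached 0.6. The 30 with no count in H-23 had a median of 0.383, and 20% reached 0.6. The larger sets past 4-fold lay close to each other. The 643 genes at least 4-fold higher in H-1299 had a median of 0.71, and 63% reached 0.6. The 975 at least 4-fold lower had a median of 0.691, and 59.4% reached it. The low ratio of the 30 genes thus did not extend to all genes higher in H-1299. The comparison was chosen after the values were seen, and no difference was tested.

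HOX genes, which set position along the body axis, were apart in most of the 4 clusters: 21 of 38 tested were called higher and 14 lower, 14 and 8 of them at least 4-fold, with a median of 0.58. HOXB2 to HOXB9 were all at least 4-fold higher in H-1299, with HOXB3 at 69.9 ± 1.96 against 14 ± 0.505 CPM, HOXB7 at 55.4 against 9.06 and HOXB2 at 57.4 against 1.51. HOXC6 and HOXC8 were higher as well (3.06 and 3.26), while HOXC11, HOXC12, HOXD10 and HOXD11 were lower, at or under 0.0444 CPM in H-1299 and at 9.19, 2.64, 8.25 and 7.68 in H-23. Other posterior genes went both ways. HOXD13 was at 3.15 against 0.23 CPM, HOXA9 at 2.42 against 0.206 and HOXA10 at 3.36 against 0.962, and HOXC9 was also called higher. HOXA11, HOXA13, HOXB13, HOXC10, HOXC13, HOXD9 and HOXD12 were called lower, with log2 fold changes of -0.47 (HOXD9) to -3.30 (HOXD12).

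Large differences lay side by side on several chromosomes. Among coding genes averaging 50 or more counts in the higher line, 18 runs of at least 5 neighbours were all called at least 4-fold in the same direction, 14 higher in H-1299 with 86 genes and 4 lower with 24. These limits were chosen after looser ones had been looked at. The runs included HOXB2 to HOXB9 (chromosome 17, 48540894 to 48633572), AXL with TGFB1 and 4 neighbours (chromosome 19, 41219203 to 41384083), 6 GAGE genes and the MAGEA12 cluster on chromosome X, and the protocadherins PCDHB2 to PCDHB6 on chromosome 5. On the lower side they included OLR1 to KLRC2 (chromosome 12, 10158301 to 10442300). This run holds lectin receptors of natural killer and endothelial cells, and also TMEM52B and GABARAPL1, which are not of that family. OLR1 had 3 counts in the H-1299 libraries together and 136 CPM in H-23, and KLRC2 was at 0.139 against 41.2. The GAGE genes are near-identical copies, so their single values are uncertain.

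Another stretch, chosen after its values were seen, was a field of KRAB zinc finger genes, a family of DNA-binding repressors, on chromosome 19 (19865886 to 23147219). It joined 2 runs of 7 genes across ZNF714, ZNF431 and ZNF708, which were under 4-fold. All 17 coding genes above that count were called higher in H-1299, which held them at 9.20 to 109 CPM. H-23 ranged from no count to 54.4 CPM along the same stretch. In the middle lay ZNF714 and ZNF431, at 54.4 and 25.3 CPM in H-23. On one side the H-23 level dropped to 1 count in all for ZNF90 and ZNF486 and was back at 5.93 CPM for ZNF253, the outermost gene. On the other side it dropped step by step to no count for ZNF208, ZNF492 and ZNF730, with 2 counts for ZNF257 among them. ZNF730 was at 36.5, 32.8 and 35.2 CPM in H-1299 and ZNF492 at 18.2, 15.8 and 18.2. Over the 240 zinc finger genes tested on the chromosome 161 were called higher and 39 lower, 55 and 4 at least 4-fold, with a median of 0.86.

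Histone genes, packed on chromosome 6, were slightly higher in H-1299 on the whole: 33 of 58 tested were called higher and 16 lower, and their sum was 10242 CPM against 7717. Single genes within the cluster were silent all the same. H3C11 and H4C13, which lie next to each other, had no count in H-1299 and 83.7 ± 2.48 and 124 ± 1.82 CPM in H-23. H3C6 and its neighbour H4C6 had none and 3 counts in H-1299 and stood at 9.94 and 189 CPM in H-23, while the genes just beside them, H2AC8 and H3C7, were at 254 and 465 CPM in H-1299. H4C9 was the reverse, at 35.1 ± 1.71 against 0.650 ± 0.142. Copies of 1 histone type encode nearly the same protein and share sequence, so reads could have been shared between them. The families of histone and zinc finger genes were drawn by symbol after the values were seen.

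**Figure D3:**
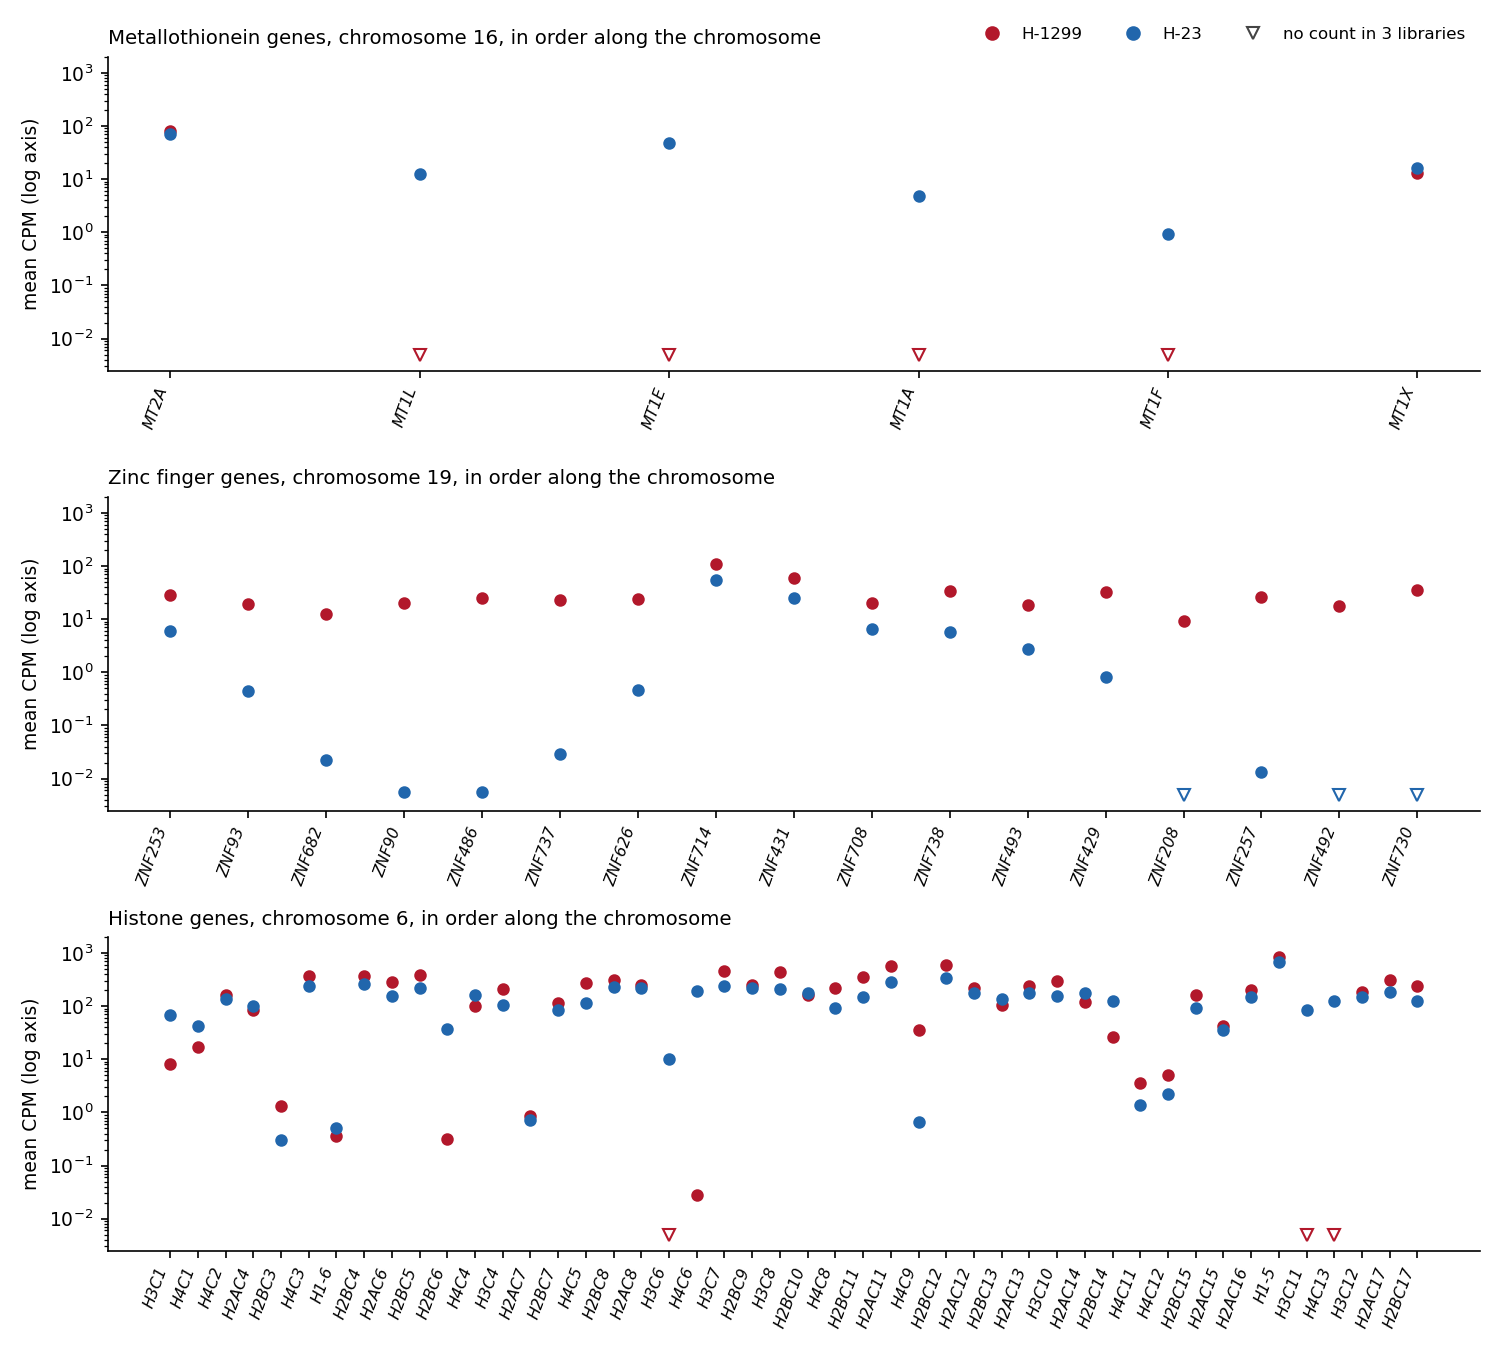
Mean CPM (log axis) over 3 DMSO libraries of H-1299 (red) and H-23 (blue) for neighbouring genes in their order along the chromosome, with open triangles where no library had a count. MT1L to MT1F are at 0 in H-1299 between MT2A and MT1X, the zinc finger genes are lower in H-23 on both sides of ZNF714, with ZNF253 at the edge back at 5.93, and H3C6, H4C6, H3C11 and H4C13 are gaps in an expressed histone cluster.

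Whole chromosomes were shifted as well. Over 12983 coding genes with the same minimum count the median log2 fold change was 0.07. It was highest on chromosomes 4 (0.66), 6 (0.65), 8 (0.63) and 5 (0.59) and lowest on chromosomes 20 (-0.61), 17 (-0.37), 2 (-0.28) and 1 (-0.27). On chromosome 4 335 of 487 genes were called higher and 108 lower, and on chromosome 20 98 of 375 and 238. Of the 14 runs that were higher in H-1299 4 lay on chromosome 8, with 27 genes. DNA copy number was not measured here, and its part in these shifts was not tested.

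**Figure D4:**
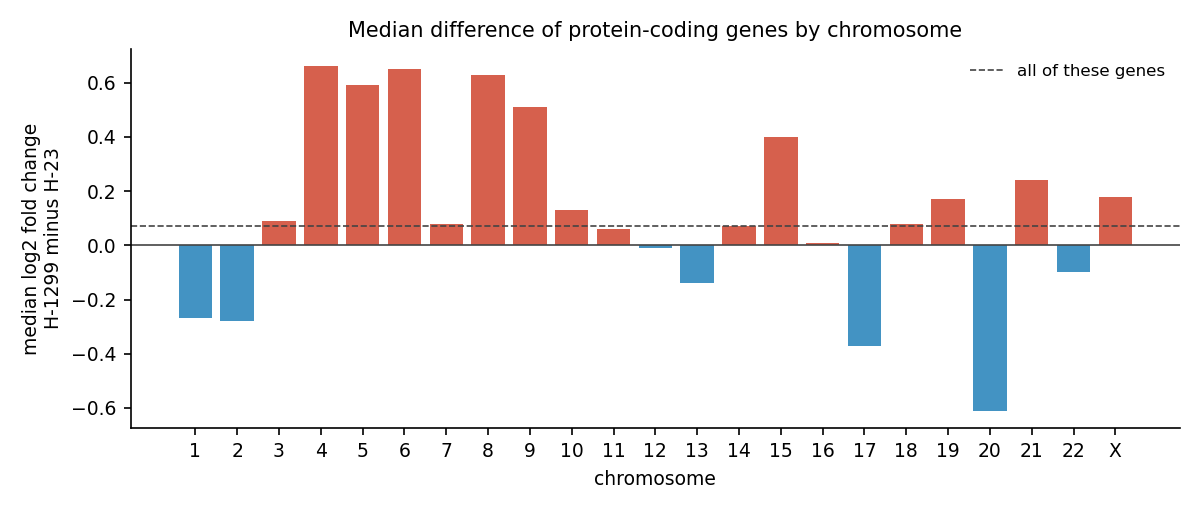
Median log2 fold change, H-1299 minus H-23, of protein-coding genes on each chromosome, as bars from 0; the dashed line is the median of all 12983 genes (0.07). Chromosome 4 reaches 0.66 and chromosome 20 lies at -0.61.

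The lines were set beside the other 6 in DMSO, with 48 libraries scaled together. For some genes H-1299 lay outside the range of the others, for some H-23 and for some both. H-1299 was below the whole range of the others for S100A6, EPAS1, NDRG1, PHLDA3, MT1E and FGFR2, and above it for AXL, FAM9C, MAGEA12, TDRD9, BEX1, PSMB1 and HSP90AA1. H-23 was above all others for TFPI2, CDH11, H4C6 and TCIM, a regulator of Wnt signalling, and below them for CDK6. Both lines lay outside the range of the other 6 for EPAS1, NDRG1, CDK6 and TFPI2. H-23 was at 79.2 CPM of EPAS1 and 132 of NDRG1, against at most 54.1 and 88.7 in the other 6. H-1299 was at 765 CPM of CDK6 against at most 584. TFPI2 was at most 10 CPM in the other 6 lines and at 25.5 in H-1299. CDH1 was at 0.0354 to 1227 CPM in them, so H-1299, with none, had the lowest level and H-23 ranked 3rd.

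**Figure D5:**
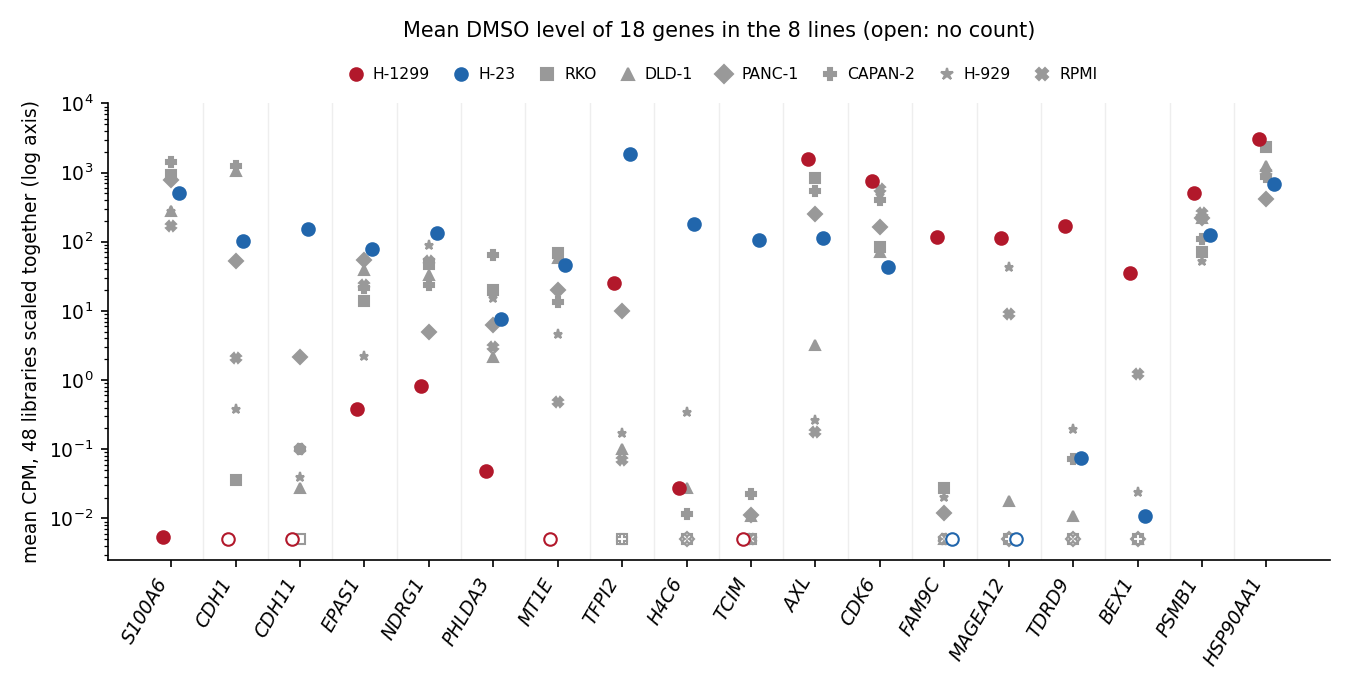
Mean CPM (log axis) of 18 genes in the DMSO libraries of 8 lines, H-1299 in red, H-23 in blue and the other 6 lines in grey by symbol; open symbols are lines with no count. S100A6 is at 169 to 1401 in the 6 other lines and near 0 in H-1299, and TFPI2 is at most 10 in them and highest in H-23.

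The baseline difference was then compared with that between the same lines after carfilzomib, in 6 other libraries fitted on their own. There 14297 of 17721 rows (80.7%) were called. Of 14193 baseline calls tested in those libraries 11615 (81.8%) were called with the same sign, 756 with the opposite sign and 1822 not at all. Of 3361 baseline calls of at least 4-fold, 3269 (97.3%) kept their sign and call and 7 were opposite. A test of whether the difference between the lines itself differed between treatments called 8102 of 19070 rows (42.5%). CDH11, MT1E and MAGEA12 stayed at 0 in the same line, and CDH1 was at 0.0307 CPM in H-1299 against 26.9. AXL narrowed to 621 against 122 CPM (change in the log2 difference -1.36, adjusted p = 5.3e-10) and VIM to 2310 against 1727 (-0.75, adjusted p = 2.0e-08). KRT8 and HSPA8 moved further apart, to 98.9 against 1649 and 12186 against 2051 CPM. BAG3 and EGFR, not called at baseline, were called there, at 264 against 86.8 CPM (log2 fold change 1.61) and 47 against 106 (-1.18).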

How the data were processed

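RNA extracted with Qiazol was made into stranded total RNA libraries, per the labels' protocols. The authors deposited 1 matrix of raw read counts per gene, 33892 rows by 48 libraries. The submitters' processing notes name bcl2fastq 2.19, FastQC, Trimmomatic, HISAT2, DESeq2 and the build hg38; the counting program, its annotation and its use of strand are not given in the sources used here. The 6 DMSO libraries of H-1299 and H-23 were fitted with edgeR 4.0.16 (R 4.3.3) after TMM scaling and the filterByExpr filter, by the quasi-likelihood F test with Benjamini-Hochberg adjustment over all rows tested. Scripts were tested on simulated data. Totals set the counting error only, and reads are not known to carry molecular identifiers. Gene types and coordinates came from GENCODE release 29 (GRCh38) by identifier, which matched 29680 rows (87.6%). A total of 4803 rows have an identifier that recurs elsewhere in the matrix, and single rows of that kind are uncertain.

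The lists (epithelial, mesenchymal, keratin, lung lineage, neuroendocrine, RAS and MAPK, receptor kinase, growth factor, NRF2, antigen presentation, interferon and STING, chaperone, proteasome, SWI/SNF, cancer-testis, CDK and RB, proliferation, HOX, integrin, matrix, metallothionein, drug transport, Notch and Wnt, hypoxia, and blood, plasma cell, endothelial, intestinal and pancreatic markers) and the members were chosen with earlier results of these data known. Tested blood markers were called higher in 2 and lower in 3 of 6, plasma cell markers in 0 and 3 of 4, endothelial markers in 3 and 5 of 8, and intestinal markers in 0 and 3 of 4; no pancreatic marker passed the filter. Named genes are a fixed set of 35 with the HSPA1A and HSPA1B sum, the 12 largest differences each way with a mean of at least 500 counts and no overlap, the 6 most abundant per length each way past 4-fold, and up to 4 per list; other names were chosen as examples of the lists or after their values were seen, as said. NKX2-1 and some others are not analysed here, and some results are not reported here. Alternatives were DESeq2 1.42.0 and its size factors, library totals, other filters, the replicate number as a block, a test against a 1.5-fold change, a joint fit of 48 libraries, thinning, summed rows, and leaving out each library.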

Additional observations from a re-analysis of the deposited data

Results flagged for a closer look

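With 42.5% of rows showing a difference between the lines that itself differed between treatments, only named genes were taken up here whose difference was called with opposite signs in DMSO and in carfilzomib, with the change itself called. This narrower condition was set after the number of calls was known, and 2 genes met it. HSPA6, a stress-inducible HSP70, was lower in H-1299 in DMSO (0.416 ± 0.132 against 4.77 ± 0.666 CPM, log2 fold change -3.47, all 3 libraries below all 3) and higher after carfilzomib (90.5 against 22.4 CPM, log2 fold change 2.01). The change between the treatments was 5.50 on the log2 scale, with an adjusted p of 4.7e-12 in edgeR. MT2A, a metallothionein named after its values were seen, was higher in H-1299 in DMSO (80.6 against 71.3 CPM, log2 fold change 0.17, adjusted p = 0.0381 in edgeR), a call that 9 of 16 alternatives lost and for which the libraries overlapped. It was lower after carfilzomib (20.5 against 60.1 CPM, log2 fold change -1.55), and the change between the treatments was -1.68, with an adjusted p of 3.3e-09 in edgeR.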

How the results depend on the processing

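For the numbers of genes called over the whole table, these alternatives moved a count by over 1.5 times. With a null fold change of 1.5, 4294 genes were called higher and 4933 lower, and the number of baseline calls also called with the same sign after carfilzomib was 6981. With a mean of at least 50 counts, which tests fewer genes, 1404 were at least 4-fold lower. Leaving out 1 library gave 6974 to 7258 genes higher and 7306 to 7881 lower, and 1336 to 1430 at least 4-fold higher and 2533 to 2753 at least 4-fold lower. Replicate numbers did not pair the samples: the correlations of same-numbered libraries were -0.033, -0.019 and -0.029, and with the replicate number as a block 7067 genes were higher and 7311 lower. Among the counts called per list, 41 values moved and 887 did not. Of the genes named by rule, B2M reversed to 0.55 when its rows were summed, and 10 lost their call under some alternative, 9 of them with the null fold change of 1.5. MT2A reversed to -0.04 on library totals, where the median of all genes was -0.26. EGFR gained a call under 5 alternatives and ESRP1 under 1, without H-23 replicate 3. The test of the difference between treatments was run in 1 way only. Depth limits the genes at 0, since 3 counts over a line, the floor used for bounds, equal 0.0225 CPM. Except where a value or the alternative's construction shows it, the cause was not tested.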

Other observations

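Some identifiers have several rows in the matrix, and these rows did not always differ in the same direction. Of 552 such identifiers with a tested row, 75 had at least 2 called rows, 36 had rows called in opposite directions, and in 11 each of the opposite rows was at least 4-fold apart. B2M is 1 of these 11. Its first row was at 0.516, 0.283 and 0.131 CPM in H-1299 and at 28.7, 29.5 and 32.9 in H-23. Its second row was at 49.5, 48.3 and 49.7 CPM in H-1299 and at 0.310, 8.60 and 0.581 in H-23, where 1 library stood apart from the other 2. What separates the rows is not given in the sources used here.

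Some of the most abundant transcripts that were at least 4-fold higher in H-1299 encode ribosomal proteins. RPL7 was at 2314, 2323 and 2332 CPM against 310, 312 and 316, and RPS6 at 1415 ± 19.5 against 322 ± 11.2. H-1299 ranked 1st of the 8 lines for RPL7 and H-23 ranked 8th, with the other 6 at 459 to 971 CPM. RPL7P9, a pseudogene of RPL7, was at 296 against 36.5, and reads of the gene and its copy may not have been told apart. EZR, which links the membrane to actin, was at 839 ± 53.5 against 139 ± 4.74 CPM, again the highest and the lowest of the 8 lines.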
